A study of Homo sapiens with 3 samples.

Results

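Genes of interferon signalling, the interferon-stimulated antiviral response, MHC class I antigen presentation and the NF-kB and cytokine pathway were followed in SW480, an established cell line from a human colon adenocarcinoma, after knockdown of the RNA-binding protein RBMS1. A list of 48 named genes was matched through RefSeq accessions to the authors' deposited table, in which 43 had a value, on 68 transcripts of 20104, and the whole table held 12582 matched genes. IFIT1, IFIT2, TNFAIP3, CXCL8 and CXCL1 had no matched transcript, so values for them were not analysed here. All of them but IFIT2 still entered the promoter search below. Cells carried an shRNA against RBMS1 (1 library) or control shRNA (2 libraries), and total RNA was taken 48 hours after transduction and depleted of ribosomal RNA. The knockdown rests on 1 hairpin, and the labels do not say if the controls share theirs.

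The table gives 1 log2 fold change per transcript, shRBMS1 over shControl, computed by the authors, and a gene's value below is the median of its transcripts there. Since levels in each library were not analysed here, read depth is unknown and no error can be given. The knockdown arm holds 1 library, so differences were not checked in replicates and carry no p-value. The direction of the ratio was taken from RBMS1, which by this choice lies lower in shRBMS1 cells, and every sign turns if it is the other way. The 2 transcripts of RBMS1 (chromosome 2, 160272151 to 160493807, hg38) were at −1.36 and −1.62 per the authors' deposited table, and its median of −1.49 leaves 35.6% of control.

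Type I interferons bind the receptor pair IFNAR1 and IFNAR2, whose kinases JAK1 and TYK2 phosphorylate STAT proteins. With IRF9 these form ISGF3, which binds the interferon-stimulated response element (ISRE) in the promoters of antiviral genes. NF-kB, held in the cytoplasm by NFKBIA, drives chemokines and cytokines and acts with interferon factors at MHC class I genes, whose products show peptides to cytotoxic T cells.

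The promoters show how the listed genes differ in the sites they carry. RefSeq promoter sequence of build GRCh38.p14, from 250 bases before to 50 after the start, was found for 41 of the 48 genes, and not for IFNAR2, IRF3, IRF7, IFITM2, IFIT2, UBA7 and RELB. Only 1 start per gene was searched, so a site at another start would be missed. Of the promoters printed below, those of IFI27 and ISG20 lie inside the span of the gene. The ISRE was searched on both strands as TTTC, any 2 bases and TTTC again, which reads GAAA, any 2 bases and GAAA on the other strand, and 20 of the 41 held it (48.8%), against 3.65% of 27305 promoters. The NF-kB consensus decamer was held by 16 (39.0%), against 10.8% of all promoters, and 8 genes held both. Among the antiviral genes 12 of 15 promoters had an ISRE, whereas 0 of 4 receptor and kinase promoters and 0 of 3 STAT and IRF promoters had one. Shown here are the ISRE promoters of 3 genes that lay higher in shRBMS1 cells (CXCL10, IFI27 and IFITM1), of 2 that lay lower (ISG20 and IFI6) and of TAP1, which has both motifs and a value near 0. Capitals mark the ISRE in each and, in CXCL10 and TAP1, also the NF-kB consensus. The ISRE matches of TAP1 overlap each other, and no ISRE overlaps an NF-kB match in these 6.
CXCL10 (chr4:76023448-76023747, minus strand): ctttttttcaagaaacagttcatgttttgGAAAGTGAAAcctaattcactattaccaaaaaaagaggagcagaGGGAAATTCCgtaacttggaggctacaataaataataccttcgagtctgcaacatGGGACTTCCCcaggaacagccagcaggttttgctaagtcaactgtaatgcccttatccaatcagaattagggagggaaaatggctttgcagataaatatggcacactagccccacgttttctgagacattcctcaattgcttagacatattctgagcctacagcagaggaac
IFI27 (chr14:94110486-94110785, plus strand): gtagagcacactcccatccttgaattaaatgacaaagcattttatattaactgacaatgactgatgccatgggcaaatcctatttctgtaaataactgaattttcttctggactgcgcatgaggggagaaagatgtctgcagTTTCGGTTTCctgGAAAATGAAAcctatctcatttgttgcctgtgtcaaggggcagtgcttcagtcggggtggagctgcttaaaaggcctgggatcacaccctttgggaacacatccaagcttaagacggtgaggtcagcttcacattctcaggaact
IFITM1 (chr11:313790-314089, plus strand): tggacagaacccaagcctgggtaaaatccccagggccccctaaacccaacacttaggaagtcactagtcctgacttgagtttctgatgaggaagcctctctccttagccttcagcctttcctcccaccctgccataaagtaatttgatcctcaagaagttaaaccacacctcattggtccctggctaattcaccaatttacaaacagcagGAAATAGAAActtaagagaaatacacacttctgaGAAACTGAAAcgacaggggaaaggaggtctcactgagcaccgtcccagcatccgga
ISG20 (chr15:88638766-88639065, plus strand): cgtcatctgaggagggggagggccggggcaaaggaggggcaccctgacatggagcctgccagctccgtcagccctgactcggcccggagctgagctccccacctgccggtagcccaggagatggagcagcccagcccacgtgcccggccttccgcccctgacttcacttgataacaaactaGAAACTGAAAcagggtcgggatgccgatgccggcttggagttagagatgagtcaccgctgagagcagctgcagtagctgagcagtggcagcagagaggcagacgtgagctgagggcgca
IFI6 (chr1:27672143-27672442, minus strand): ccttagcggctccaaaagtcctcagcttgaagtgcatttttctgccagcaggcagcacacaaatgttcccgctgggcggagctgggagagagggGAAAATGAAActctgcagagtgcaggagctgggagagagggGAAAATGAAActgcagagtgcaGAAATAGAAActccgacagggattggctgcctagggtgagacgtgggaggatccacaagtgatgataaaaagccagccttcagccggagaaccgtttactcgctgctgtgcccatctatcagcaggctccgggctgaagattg
TAP1 (chr6:32853655-32853954, minus strand): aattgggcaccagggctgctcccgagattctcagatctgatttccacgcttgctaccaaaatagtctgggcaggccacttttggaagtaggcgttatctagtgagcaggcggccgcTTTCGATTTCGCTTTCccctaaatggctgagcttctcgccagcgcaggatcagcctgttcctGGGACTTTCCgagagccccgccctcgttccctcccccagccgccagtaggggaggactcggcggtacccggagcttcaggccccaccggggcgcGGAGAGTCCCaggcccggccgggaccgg

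Of the 43 measured genes, CXCL10 alone was at or above 1 on the log2 scale, 1 gene against 3.95% of all genes. At or below −1 were 3 genes, IRF7, TAP2 and CSF2, against 3.96% of all genes. These counts are too small to set the genes apart from the background. They were 4 and 1 when each gene took its least changed transcript, against 2.77% and 2.63% of all genes taken that way. These are bulk samples, in which fewer cells expressing a gene and less of its RNA per cell cannot be told apart. Most values were small, with 34 of 43 (79.1%) within 0.5 of 0, near the 76.9% of all genes. Below 0 were 28 of 43 (65.1%), against 48.5% of all genes, and the median was −0.15 against 0.01 for all genes. Taking the least changed transcript instead, 23 of 43 (53.5%) lay below 0, against 49.3% of all genes, and the median was −0.07. Among the 28 genes with a single transcript, whose value involves no choice between transcripts, 18 were below 0 (64.3%), against 49.6% of all such genes, and their median was −0.14 against 0.00253. In the cumulative plot the curve of the listed genes accordingly lies above that of all genes at 0.

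**Figure D1:**
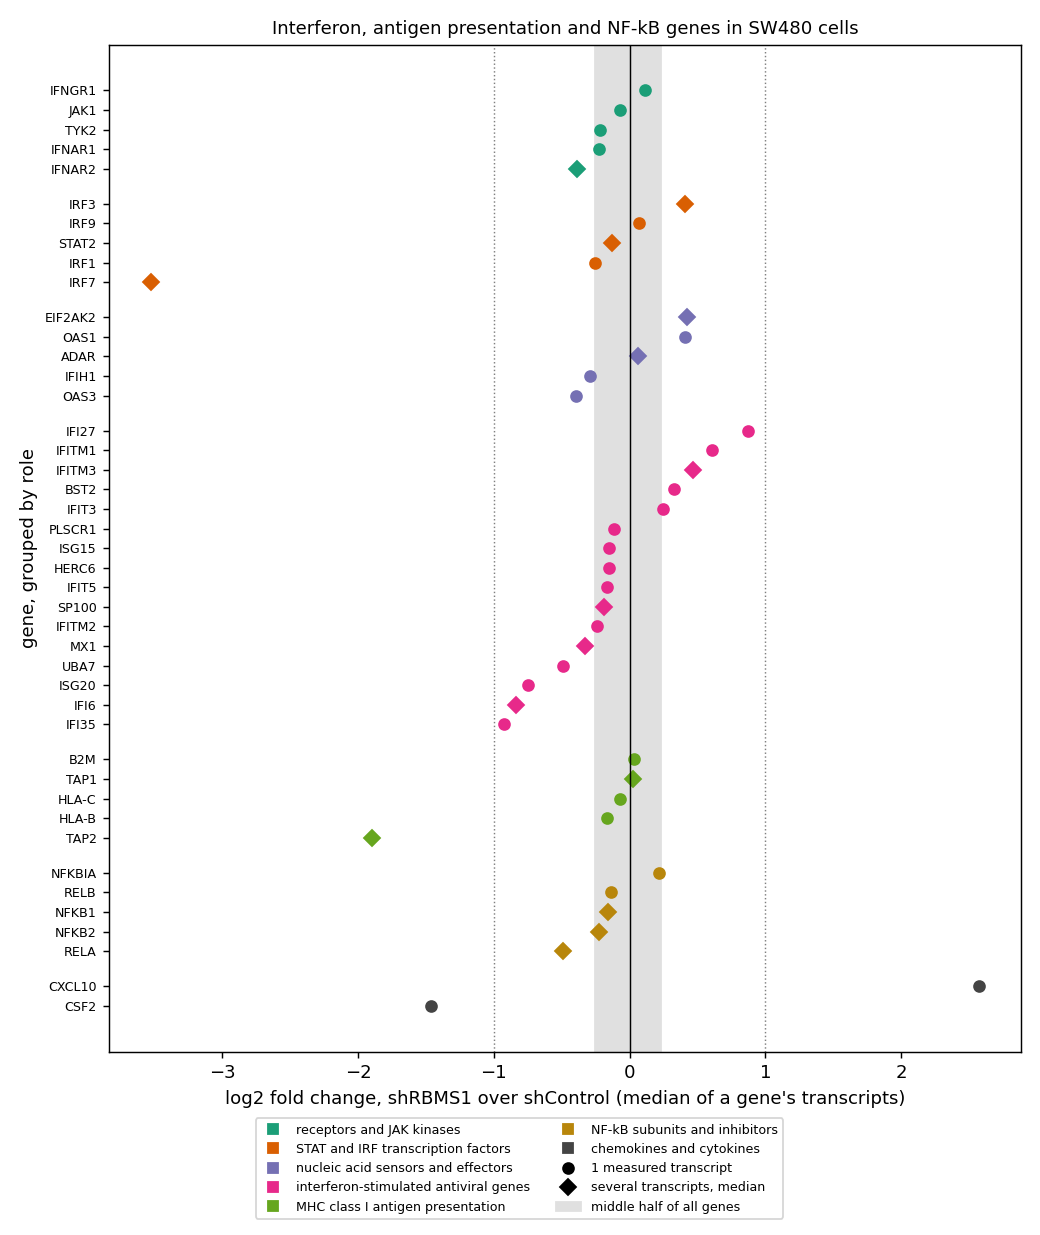
Log2 fold change per gene, shRBMS1 over shControl, of the 43 measured genes by role; circles are genes with 1 transcript, diamonds medians of several, the grey band is the interquartile range of all genes and dotted lines mark −1 and 1. CXCL10 at 2.57 stands alone at the right and IRF7, TAP2 and CSF2 lie left of −1.

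**Figure D2:**
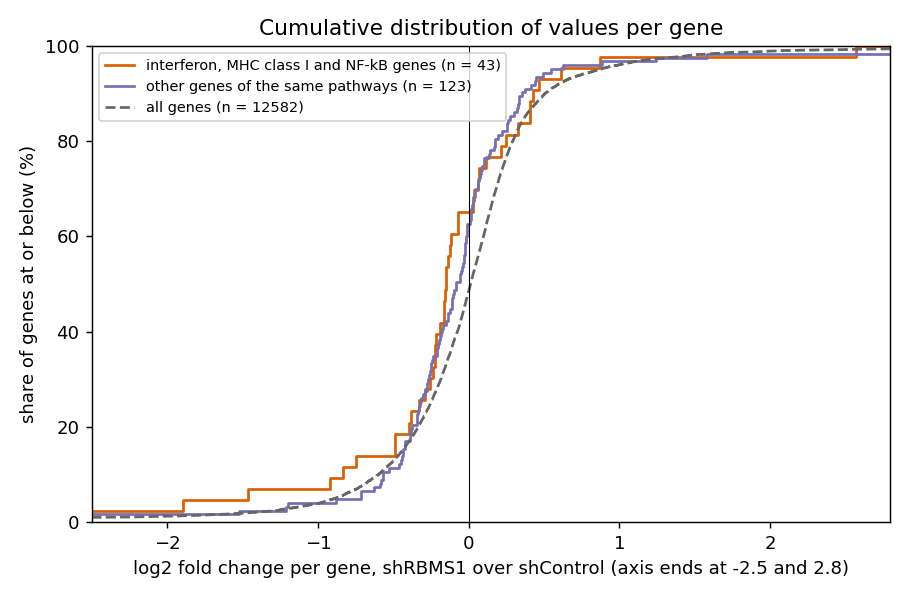
Cumulative share (%) of genes at or below each log2 fold change, for the 43 listed genes, 123 other genes of the same pathways and all 12582 genes. At 0 the curves stand at 65.1%, 62.6% and 48.5%.

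The receptors and their kinases varied little. In the authors' deposited table IFNAR1, the low-affinity chain of the type I receptor (chromosome 21, 33324395 to 33359864), was at −0.22 and TYK2, its kinase, at −0.22. JAK1, shared by type I and type II receptors, was at −0.07, and IFNGR1, the ligand-binding chain for interferon gamma, at 0.11. IFNAR2, the high-affinity chain, had a median of −0.39 over 4 transcripts, which ran from −2.06 to 0.21 per the authors' deposited table. Thus 4 of 5 genes lay below 0 and none reached 1 in either direction. Among 12 other receptor and feedback genes 11 were measured, 5 of them below 0 (45.5%, against 48.5% of all genes). None was beyond 1, and the median was 0.02. The lowest in the authors' deposited table was USP18, a protease that removes ISG15 and dampens receptor signalling, at −0.53, and the highest was IFNLR1, a chain of the lambda interferon receptor, at 0.63.

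STAT2 and IRF9, parts of ISGF3, lay near 0. STAT2 was at −0.13 (transcripts at −0.31 and 0.06) and IRF9 at 0.07 in the authors' deposited table. IRF1, a factor induced by interferon gamma (chromosome 5, 132481609 to 132490773), was at −0.26. IRF3, the factor activated first by viral RNA sensing, had a median of 0.41 in the authors' deposited table, but its 5 transcripts stood at −1.39, −0.996, 0.41, 0.44 and 1.61. IRF7, the factor that amplifies interferon production (chromosome 11, 612555 to 615950), had the lowest median of the 43 at −3.53, which joins only 2 transcripts at −9.81 and 2.76 per the authors' deposited table. The transcript at −9.81 was the only one of the 68 beyond 5 in either direction. Both IRF7 transcripts are coding, of 1425 and 1512 coding bases in GENCODE 29, the shorter being the one at −9.81. How many reads lie behind it is unknown, and with the least changed transcript the gene would stand at 2.76, above 0. Of 9 other STAT and IRF genes 8 were measured, 7 of them below 0 (87.5%, against 48.5% of all genes). The corepressor IRF2BP1 was highest at 0.32 in the authors' deposited table.

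Sensors and effectors of viral RNA had values on both sides of 0. The authors' deposited table put IFIH1, the sensor MDA5 of long double-stranded RNA, at −0.29. EIF2AK2, the kinase PKR that halts translation, had a median of 0.42 from transcripts at −0.19 and 1.04 per the authors' deposited table. ADAR, which edits adenosine to inosine, had a median of 0.06 in the authors' deposited table. Its 2 transcripts with the longer coding sequences, 3681 and 3603 bases, stood at 1.48 and −0.22, and the 2 of 2796 bases at −0.25 and 0.34 per the authors' deposited table, so both lengths lay on both sides of 0. OAS1, a synthetase of the activator of RNase L, was at 0.40 in the authors' deposited table and its neighbour OAS3 at −0.40. Of 5 genes in this role 2 were below 0. Of 20 other sensor genes 15 were measured, with 11 below 0 (73.3%, against 48.5% of all genes). Of the 15, 1 was higher and 0 were lower by at least 1, against 3.95% and 3.96% of all genes. The 1 is IKBKE, a kinase that activates IRF3, at a median of 4.56 from transcripts at −0.61 and 9.73 per the authors' deposited table, and the lowest was the DNA-sensing adaptor STING1 at −0.88.

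No listed antiviral effector gene had a median beyond 1 in either direction, although MX1 would stand at 1.92 with its least changed transcript. Of 18 listed, 16 were measured, and 11 of these were below 0 (68.8%, against 48.5% of all genes), with a median of −0.16. Highest in the authors' deposited table was IFI27, a small membrane protein (chromosome 14, 94105894 to 94116690), at 0.87, which is 183% of control. IFITM1, which blocks viral entry at the cell surface, was at 0.61 in the authors' deposited table, 153% of control. IFITM3, its endosomal paralogue, had a coding transcript at 0.01 and a non-coding one at 0.93, and IFITM2 was at −0.24 in the authors' deposited table. IFITM genes are paralogues that share sequence, and how the authors divided reads between them is not stated in the labels. BST2, the tether that holds budding virus at the membrane, was at 0.32 in the authors' deposited table, and IFIT3 and IFIT5, of a family that binds viral RNA, were at 0.25 and −0.17. These values place IFI27 at percentile 95.1 and IFITM1 at 92.1 of all genes.

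At the low end in the authors' deposited table were IFI35, a partner of NMI (chromosome 17, 43006784 to 43014456), at −0.92 or 52.7% of control, and ISG20, an exonuclease that degrades RNA, at −0.75 or 59.5% of control. IFI6, which inhibits apoptosis at mitochondria, had a median of −0.84 from transcripts at −1.78 and 0.11 per the authors' deposited table. MX1, the dynamin-like GTPase against influenza virus, had a median of −0.33 from transcripts at −2.57 and 1.92 per the authors' deposited table. GENCODE gives both MX1 transcripts the same coding sequence of 1989 bases, with 5′ UTRs of 1025 and 405 bases, the longer belonging to the transcript at −2.57. SP100, a nuclear body protein, had a median of −0.19 over 4 transcripts, all of them below 0, from −1.21 to −0.16 per the authors' deposited table. PLSCR1, a phospholipid scramblase, was at −0.12 in the authors' deposited table.

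ISG15 is a ubiquitin-like protein that is joined to targets by UBA7, UBE2L6 and HERC5 in turn and removed by USP18, and HERC6 is its main ligase in mice. In the authors' deposited table ISG15 itself (chromosome 1, 1013497 to 1014540) was at −0.15, the activating enzyme UBA7 at −0.49 and the conjugating enzyme UBE2L6 at −0.71. The ligase HERC5 was at 0.33 and HERC6 at −0.15 in the authors' deposited table, beside the −0.53 of USP18. These 6 were drawn together after their values were seen.

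Of 38 other antiviral genes 30 were measured, with 21 below 0 (70%, against 48.5% of all genes) and a median of −0.25. Of the 30, 0 were higher and 2 lower by at least 1, against 3.95% and 3.96% of all genes. The 2 were TDRD7, a tudor-domain protein, at −3.98 from transcripts at −7.79 and −0.17, and IFI16, a sensor of DNA, at −1.20 on a single transcript in the authors' deposited table. Highest was SAMD9, a restriction factor of poxviruses, at 0.44 in the authors' deposited table.

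MHC class I heavy and light chains differed little between the arms. B2M, the invariant light chain, was at 0.03 in the authors' deposited table, HLA-C at −0.07 and HLA-B at −0.17. HLA-B and HLA-C are close paralogues, and reads from them are hard to divide. TAP1, which with TAP2 pumps peptides into the endoplasmic reticulum, had a median of 0.03 from transcripts at −0.33 and 0.38 per the authors' deposited table. TAP2 (chromosome 6, 32821831 to 32838739) had a median of −1.90, joining −4.77 for NM_001290043 and 0.97 for NM_018833 in the authors' deposited table, so the least changed transcript would put the gene above 0. So 3 of 5 genes were below 0 and 1 was lower by at least 1, against 48.5% and 3.96% of all genes. Of 25 other antigen presentation genes 22 were measured, 16 of them below 0 (72.7%, against 48.5% of all genes). None was beyond 1, and the median was −0.09. Lowest was PSMB9, an immunoproteasome subunit that starts next to TAP1, at −0.72, and highest RFX5, a factor of MHC promoters, at 0.49 in the authors' deposited table, from transcripts at −0.17 and 1.15.

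The TAP2 transcripts differ most in the length of the 3′ UTR. GENCODE 29 gives NM_001290043 a 3′ UTR of 3491 bases with 7 ATATA, the DNA form of the AUAUA that RBMS1 recognises, and NM_018833 a 3′ UTR of 456 bases with 0. Transcripts of SP100 and ADAR also differ in the site, without the order seen in TAP2. The SP100 transcript with 1 site was at −0.22, and those with 0 ran from −1.21 to −0.16. ADAR transcripts with 1 site were at −0.25, 0.34 and 1.48, and the one with 0 was at −0.22. Whether the site bears on these values was not tested. Both chemokine and cytokine genes with a value also carry the site, CXCL10 with 2 and CSF2 with 1, although they lay on opposite sides of 0. The 25 bases around each site of TAP2, CXCL10 and CSF2 follow, from GENCODE transcript sequence with ATATA in capitals. The sites of TAP2 are numbered from the stop codon on.
TAP2 site 1: ggcataatacATATAttttaaaata
TAP2 site 2: gtatacattcATATAgaaaatttag
TAP2 site 3: aatttagacaATATAaaaaagtaca
TAP2 site 4: gcggaaagccATATAtcttattaag
TAP2 site 5: tctttttaaaATATAttatttattt
TAP2 site 6: taaataagcaATATAtgaatgtggt
TAP2 site 7: taaattaaaaATATAtggctatgta
CXCL10 site 1: tcttagatgtATATAtttcctatat
CXCL10 site 2: atacagatagATATAtgctctgcat
CSF2 site 1: agtaatatttATATAtttatatttt

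The site is frequent in 3′ UTRs. At least 1 is held by 59.2% of 11243 genes with a linked 3′ UTR and by 17 of 41 listed genes (41.5%). IFNAR1 holds the most, 15, many in 1 run of alternating A and T, and its value was −0.22 in the authors' deposited table. IFIT5 holds 7 and PLSCR1 5, with values of −0.17 and −0.12 there. The median of the 17 listed genes with a site was −0.17 and that of the 24 without was −0.16, while over all genes the medians were 0.02 with and −0.00456 without. Below 0 were 11 of the 17 listed genes with a site (64.7%) and 16 of the 24 without (66.7%). Over all genes the shares were 48.3% of 6656 with and 50.4% of 4587 without.

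Of the 4 listed NF-kB subunits with a value all had medians below 0, against 48.5% of all genes. However, NFKB1 and NFKB2 would stand above 0, at 1.01 and 0.14, with their least changed transcripts. RELA, the main activating subunit (chromosome 11, 65653601 to 65663857), had a median of −0.49 from transcripts at −0.73 and −0.26 per the authors' deposited table, both below 0. RELB, the subunit of the non-canonical pathway, was at −0.13. NFKB2, the precursor of p52, had a median of −0.23 and NFKB1, the precursor of p50, −0.16 in the authors' deposited table. For NFKB1 the transcripts stood at −1.32 and 1.01, and those of NFKB2 at −2.15, −0.23 and 0.14 per the authors' deposited table. NFKBIA, the inhibitor and also a rapid target of the pathway, was on the other side at 0.21. Thus 4 of 5 measured genes were below 0 and none beyond 1. Of 34 other genes of the pathway 32 were measured, with 15 below 0 (46.9%, against 48.5% of all genes) and a median of 0.03. Of the 32, 3 were higher and 2 lower by at least 1, against 3.95% and 3.96% of all genes. Higher were IRAK4, a kinase of interleukin-1 signalling, at 3.81, TNIP2, a partner of TNFAIP3, at 1.58 and TAB1, an activator of the kinase MAP3K7, at 1.24 in the authors' deposited table. IRAK4 had 4 transcripts, from −2.25 to 9.49, those of TNIP2 ran from −0.39 to 8.09 and those of TAB1 stood at 0.06 and 2.43 per the authors' deposited table. Lower on 1 transcript each were TRAF5, an adaptor of TNF receptors, at −6.25 and BCL3, a nuclear IkB protein, at −1.52 in the authors' deposited table.

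Only 2 chemokine or cytokine genes of the 4 listed had a value, and they differed in direction. CXCL10, a chemokine that draws T cells and a joint target of interferon and NF-kB (chromosome 4, 76021118 to 76023497), was at 2.57 in the authors' deposited table, 595% of control and percentile 99.3 of all genes. CSF2, which encodes the growth factor GM-CSF (chromosome 5, 132073789 to 132076170), was at −1.47, 36.2% of control and percentile 1.99. Each rests on a single transcript, so neither depends on how transcripts were combined, but how many reads lie behind either is unknown. Of 23 other genes 5 were measured, 2 of them below 0, with none beyond 1. The authors' deposited table put the chemokine CXCL2 highest at 0.41 and CXCL16, a membrane-bound chemokine, lowest at −0.44. The cytokine LIF was at −0.14 there, the adhesion receptor ICAM1 at 0.13 and the dismutase SOD2, another NF-kB target, at 0.09, with 1 of its 3 transcripts at −5.57. None of these 5 came near the value of CXCL10, and CXCL9 and CXCL11, its neighbours and fellow interferon targets, were not analysed here.

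Transcripts of 1 gene often stood far apart. Of the 15 listed genes with several transcripts, 11 spanned more than 1 (73.3%), against 49.3% of all such genes, and 12 had transcripts on both sides of 0 (80.0%), against 66.5%. RELA and SP100 had all transcripts below 0 and IFITM3 had both above. The median span of the 15 was 1.89, against 0.98 for all such genes. At the level of transcripts, 7 of 68 were higher by at least 1 (10.3%), against 8.27% of all transcripts, and 10 were lower by at least 1 (14.7%), against 7.86%. Values can differ between RefSeq transcripts linked to the same GENCODE transcript, although RefSeq lists them as distinct. The coding and the non-coding transcript of IFITM3 are such a pair. GENCODE links 7 pairs of transcripts from 6 of these genes to the same GENCODE transcript, and 4 of the pairs were more than 1 apart, with a median of 1.23. One such pair is NM_001261403 and NM_002502 of NFKB2, at −2.15 and 0.14 per the authors' deposited table. Reads of transcripts that share most of their sequence are hard to divide, so for these 15 genes the sum over transcripts cannot be given without levels.

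**Figure D3:**
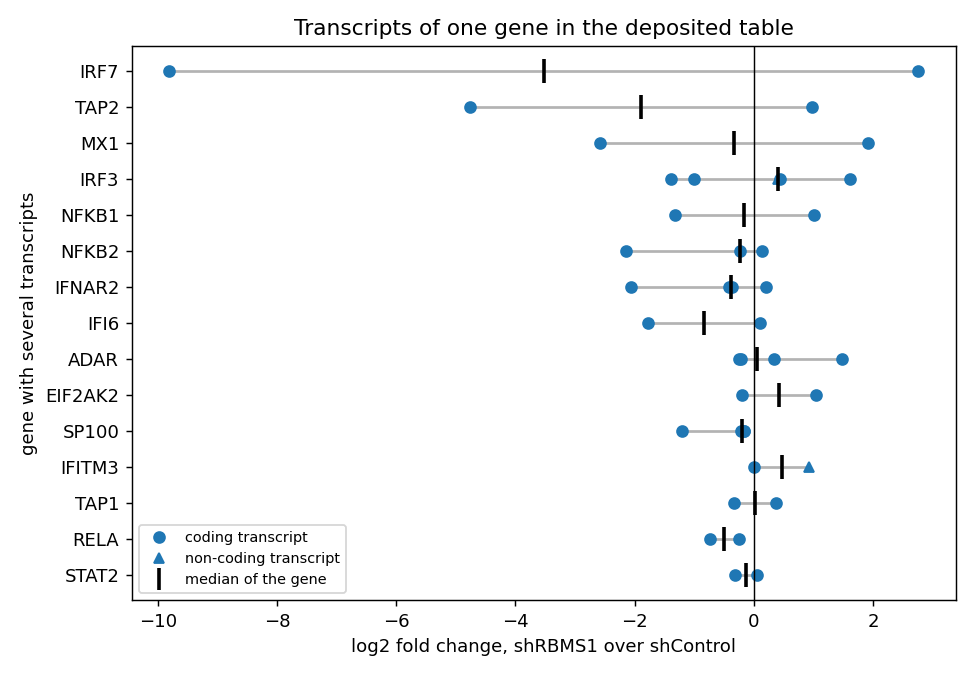
Log2 fold change, shRBMS1 over shControl, of each transcript of the 15 genes with several transcripts; circles are coding and triangles non-coding transcripts, bars mark the gene's median and lines the range. IRF7 runs from −9.81 to 2.76, and 12 of the 15 cross 0.

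Several of the genes lie side by side, and neighbours had values of the same sign in some loci and of opposite sign in others. In the IFITM locus on chromosome 11 the order IFITM2, IFITM1, IFITM3 had −0.24, 0.61 and 0.47 per the authors' deposited table. On chromosome 12, from 112906962 on, OAS1, OAS3 and OAS2 stood at 0.40, −0.40 and −0.27 per the authors' deposited table. The receptor locus on chromosome 21 held IFNAR2 at −0.39, IL10RB at −0.01, IFNAR1 at −0.22 and IFNGR2 at 0.10 in the authors' deposited table. MX2 and MX1, further along chromosome 21, were at −0.28 and −0.33. In the class II region of the MHC, TAP2, PSMB8, TAP1 and PSMB9 stood at −1.90, 0.33, 0.03 and −0.72 per the authors' deposited table. TAP1 and PSMB9 face away from each other across the TAP1 promoter.

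**Figure D4:**
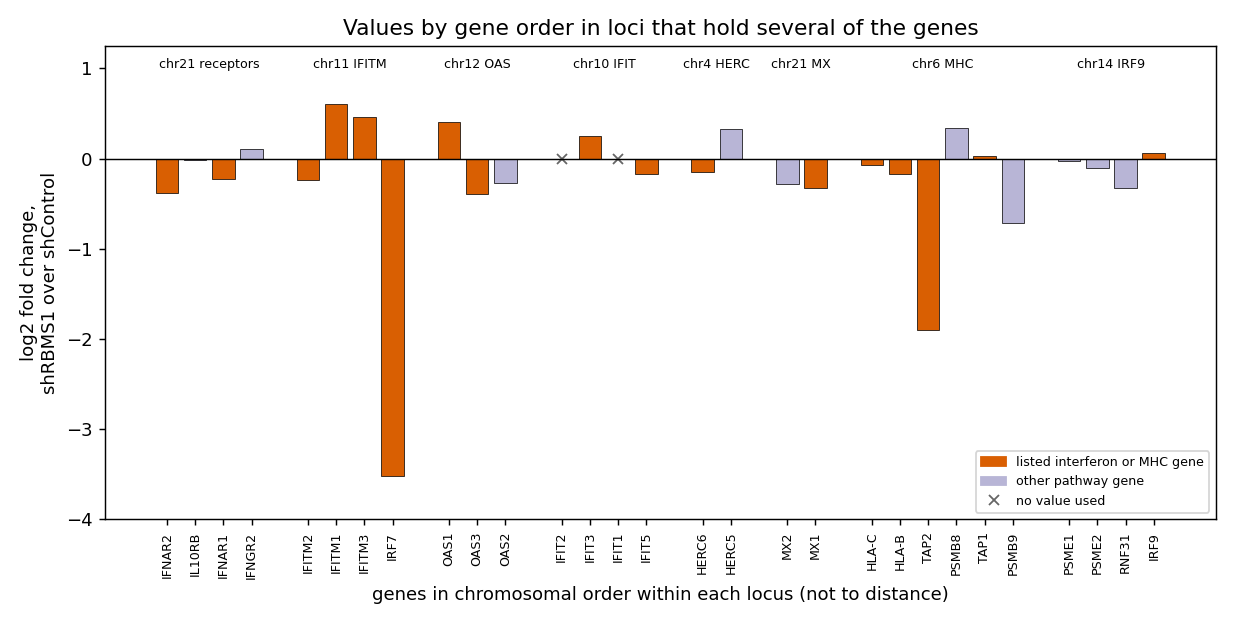
Log2 fold change per gene, shRBMS1 over shControl, in chromosomal order within 8 loci; orange bars are listed genes, violet bars other genes of the pathways and crosses genes without a value. Within the loci of IFITM, OAS and TAP genes bars point both ways.

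Genes with an ISRE did not lie on 1 side. Of the 19 with an ISRE and a value 10 were below 0 and 9 above, with a median of −0.12, while of the 18 without one 13 were below 0 and the median was −0.16. Beyond 0.5 in either direction were 6 of the 19 (31.6%) and 2 of the 18 (11.1%), and in the authors' deposited table the 6 split evenly, CXCL10, IFI27 and IFITM1 above and TAP2, IFI6 and ISG20 below. Of the other pathway genes, 1 of 26 with an ISRE (3.85%) and 16 of 74 without (21.6%) were beyond 0.5, the opposite order. Over all measured genes with a promoter, 268 held an ISRE, and 44.8% of them were below 0 against 48.8% of those without. Beyond 0.5 were 21.3% against 22.4%. Of the 14 listed genes with an NF-kB match 7 were below 0, and of the 23 without one 16 were. The other pathway genes had the same order, with 9 of 18 below 0 with a match and 50 of 82 without. All measured genes with a promoter did not show it. There 642 of 1283 with a match (50.04%) and 4232 of 8729 without (48.48%) were below 0. Whether the match bears on the values of the listed genes was not tested. A match is a run of letters and not a measured binding site.

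**Figure D5:**
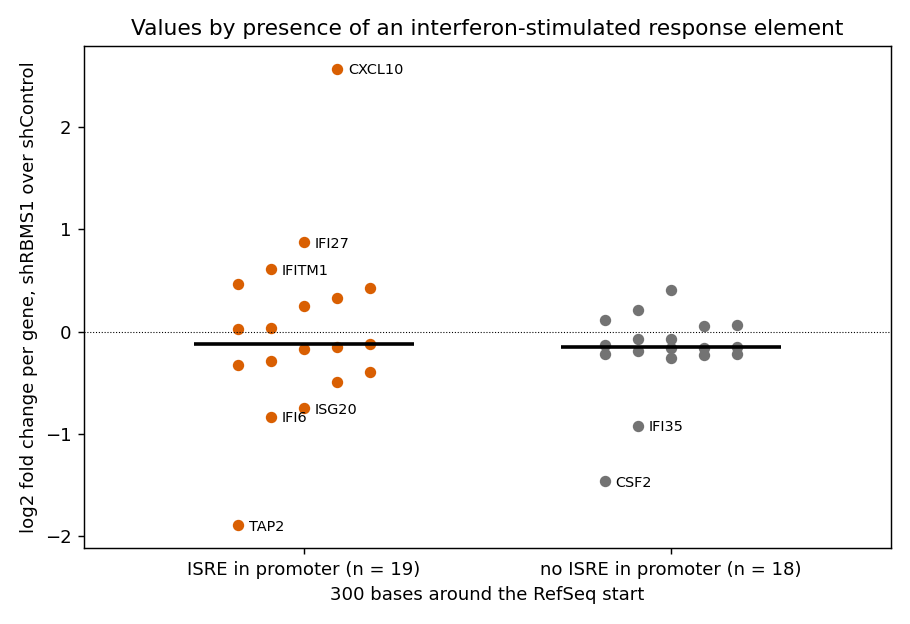
Log2 fold change per gene, shRBMS1 over shControl, of listed genes with an ISRE in the promoter (19) and without (18); bars mark the medians, −0.12 and −0.16. Genes with an ISRE reach from TAP2 at −1.90 to CXCL10 at 2.57.

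The other pathway genes were counted in the same way. Of 161 listed 123 were measured, 77 of them below 0 (62.6%), with a median of −0.08. Higher by at least 1 were 4 (3.25%) and lower by at least 1 were 5 (4.07%), near the 3.95% and 3.96% of all genes. Markers of the cells themselves were checked in the table. Of 12 colon epithelial markers 7 had a value, with 6 below 0 (85.7%, against 48.5% of all genes) and a median of −0.43. CDH1 was at −0.79, CDX2 at −0.43, EPCAM at −0.37 and KRT19 at −0.33, and KRT8 had a median of 0.05 over 4 transcripts. VIL1, a microvillus protein, was at −2.33 in the authors' deposited table, 19.8% of control, and the keratin KRT18 had a median of −1.09 from transcripts at −2.17 and −0.02. Of 10 leukocyte markers 2 had a value, LYZ at −0.68 and CD68 at −0.54 in the authors' deposited table, and PTPRC was not among them. Of 8 fibroblast and 6 endothelial markers 1 each had a value. Levels of these markers were not analysed here, and their part in the values above was not tested.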

How the data were processed

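Per the labels' protocols, DNase-treated total RNA was depleted of rRNA (Ribo-Zero Gold), made into ScriptSeq libraries and read on an Illumina NextSeq. STAR 2.5, Cufflinks, Cuffdiff and hg38 are named, per the submitters' processing notes, without settings. The authors deposited 1 log2 fold change for each RefSeq transcript, with no base in the header. Base 2 was taken because 20 transcripts lay 1 away, within 1.5e-05, from a value occurring at least 3 times, against 4 for ln 2 and 5 for log10 of 2.

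A RefSeq gene table of GRCh38.p14 matched 19818 of 20104 transcripts. Promoters came from RefSeq, and UTRs from GENCODE 29 through its RefSeq links. Counts past 1 and below 0 were set beside all genes, with no test. All members were named, and of the other pathway genes the highest and lowest of each role and those beyond 1, except 1 that is not reported here. The members and lists were chosen with earlier results of these data known. Counting was tested on simulated data. Python 3.11.15, numpy 2.4.6, pandas 2.3.3 and matplotlib 3.10.9 were used.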

Additional observations from a re-analysis of the deposited data

How the results depend on the processing

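No paired analysis was possible because the arms share fewer than 2 replicate numbers and values per library were not analysed here, so no library could be left out either. The median of the listed genes, −0.15, was −0.07 with the least changed transcript and between −0.17 and −0.15 under the other 4 ways to take or centre a value. Of the 43 genes 13 moved by more than 0.242, a distance set from the quartiles of all genes, under at least 1 of the 5, all with several transcripts. With the least changed transcript 11 genes changed sign, and those below 0 numbered 23, against 28. IRF7 turned to 2.76 with the least changed transcript or without transcripts beyond 5, and TAP2 to 0.97, MX1 to 1.92, NFKB1 to 1.01, IFNAR2 to 0.21, NFKB2 to 0.14, IFI6 to 0.11, STAT2 to 0.06, EIF2AK2 to −0.19, ADAR to −0.22 and TAP1 to −0.33 with the least changed transcript. IRF3 turned to −0.28 with coding transcripts alone. The count of listed genes higher by at least 1 was 4 with the least changed transcript, 2 without transcripts beyond 5 and 3 at a threshold of 0.58, against 1. The shares of all genes in these settings were 2.77%, 3.64% and 8.35%, against 3.95%. The count of listed genes lower by at least 1 was 1 with the least changed transcript, 1 among genes with 1 transcript, 6 at 0.58 and 1 at a threshold of 2, against 3. Here the shares of all genes were 2.63%, 3.23%, 10.5% and 1.27%, against 3.96%. Among genes with 1 transcript 18 lay below 0, against 28, since only 28 genes enter. Of the other pathway genes, those higher numbered 2 with the least changed transcript, 1 without transcripts beyond 5 and 2 at a threshold of 2, against 4. The matching shares of all genes were 2.77%, 3.64% and 1.08%, against 3.95%. Other pathway genes that were lower numbered 9 with the mean of transcripts, 11 at 0.58 and 2 at a threshold of 2, against 5. For these the shares of all genes were 4.90%, 10.5% and 1.27%, against 3.96%. Apart from the transcripts a setting drops and the thresholds themselves, the cause was not tested.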
